A study of Sus scrofa with 4 samples.

Results

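The contactins and the L1 family are neural cell adhesion molecules of the immunoglobulin superfamily, and 9 of the 10 members considered here were measured among 16026 genes of a deposited expression table. They were CNTN1, CNTN2, CNTN3, CNTN4 and CNTN5 of the contactins and L1CAM, CHL1, NRCAM and NFASC of the L1 family; CNTN6 had no row in the table used and was not analysed here. The families were chosen because CNTN2 differed between the groups, so the differences of the members between the groups are given as a description, without a test. RNA was sequenced from induced pluripotent stem cells of the Bamei black pig, body cells returned to a state like that of the early embryo, with a labelled development stage of 26.5 days in every library. The 2 libraries with the genotype shLin28a carried a hairpin RNA against LIN28A, which binds RNA in embryonic cells and keeps let-7 microRNAs from maturing, and the 2 libraries called shNC here had the genotype Negative Control. The labels say neither whether the hairpin was the same in both shLin28a libraries nor whether separate cultures were used within a group. The p-values therefore speak only of how far these libraries spread, and that spread may be technical. Numbers after a group name only tell its libraries apart.

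Contactins are held at the outside of the membrane by a glycosylphosphatidylinositol anchor, whereas L1 family proteins cross the membrane and bind ankyrin, and through it the spectrin skeleton, with their cytoplasmic tails. Members of both families bind each other and themselves on growing axons, where they act in outgrowth, bundling and guidance. In myelinated nerve, neurofascin and NrCAM gather sodium channels at axon initial segments and nodes of Ranvier, and contactins 1 and 2 join axon to glia beside the node.

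Summed expected counts, the RSEM estimates of reads per gene, were 8061417 and 2400985 in shLin28a 1 and 2, and 11847343 and 7125640 in shNC 1 and 2, the deepest being 4.93 times the shallowest. The floor of detection was set at 3 counts, which is 0.372 and 1.25 CPM (counts divided by the summed counts of a library) in shLin28a 1 and 2, and 0.253 and 0.421 CPM in shNC 1 and 2. LIN28A itself was at 3.14 and 2.58 FPKM (fragments per kilobase, scaled to the library total) in shLin28a libraries, against 32.6 and 17.2 FPKM in shNC libraries. Of the pluripotency markers, POU5F1 was at 41.4 and 16.6 FPKM in shLin28a and 43.4 and 37.7 FPKM in shNC, and SOX2 was at 109 and 53.5 FPKM in shLin28a and 91.9 and 80.9 FPKM in shNC. SALL4 was at 7.71 and 3.25 FPKM in shLin28a and 19.2 and 19.2 FPKM in shNC, LIN28B at 13.7 and 10.2 FPKM in shLin28a and 25.1 and 19.0 FPKM in shNC, and KLF4 at 5.92 and 7.73 FPKM in shLin28a and 3.86 and 2.74 FPKM in shNC. The 2 rows named NANOG did not exceed 0.70 FPKM in any library. Of the 12 listed pluripotency markers 7 had a row, among them LIN28A itself, the target of the hairpin. With LIN28A included, they summed to 182 and 94.9 FPKM in shLin28a, against 217 and 178 FPKM in shNC. The median log2 fold change of the 6 tested rows was −0.58. LIN28A was among these rows at −2.92. The others were SALL4 at −1.62, LIN28B at −0.88, POU5F1 at −0.29, SOX2 at 0.09 and KLF4 at 1.24. Summed over 12 fibroblast markers, the level was 207 and 696 FPKM in shLin28a 1 and 2, against 114 and 261 FPKM in shNC 1 and 2, with COL1A1 and ACTA2 as the most abundant. COL1A1 was at 56.5 and 206 FPKM in shLin28a and 17.6 and 52.8 FPKM in shNC, and ACTA2 at 62.5 and 220 FPKM in shLin28a and 21.3 and 64.2 FPKM in shNC; DCN was at 0 in both shLin28a libraries.

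CNTN2 was the most abundant member in shLin28a cells and, with NFASC and NRCAM, made up nearly all of the signal of the families there. In shNC cells these 3 genes stood close together, and CHL1 and CNTN3 were next. Both shLin28a libraries lay above both shNC libraries for CNTN2, NFASC, NRCAM and CNTN1, and below both for CNTN3 and CHL1. CNTN4, CNTN5 and L1CAM overlapped between the groups.

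**Figure D1:**
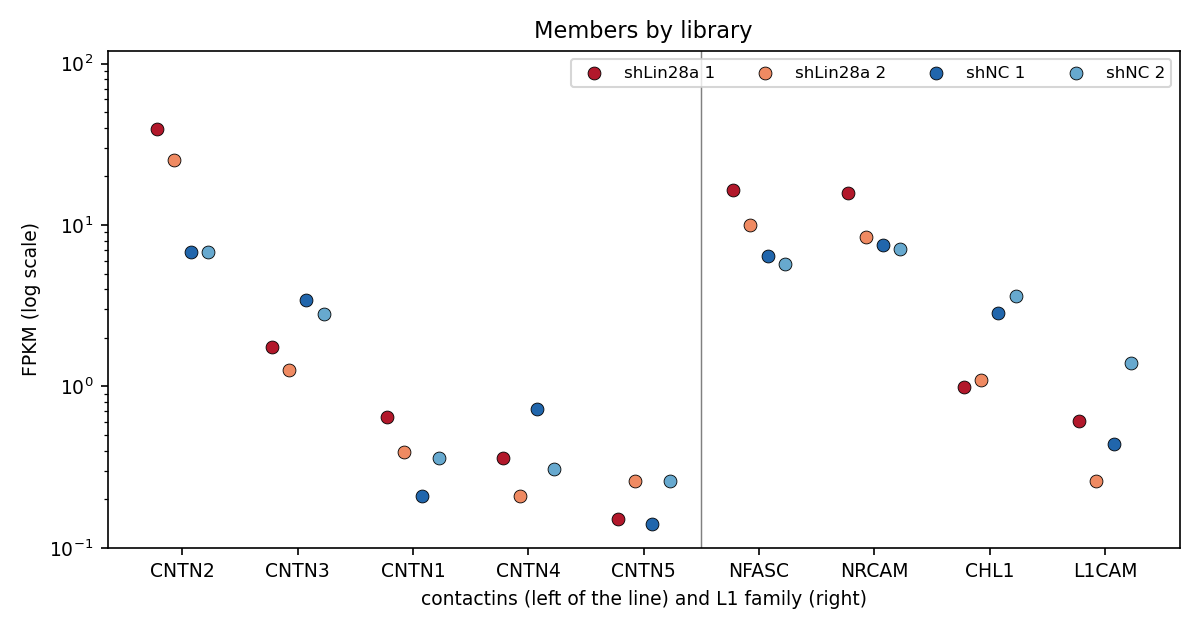
FPKM of the 9 measured members on a log scale, with a point for each library; contactins are left of the grey line and the L1 family right of it. CNTN2 lies at 39.5 and 25.1 FPKM in shLin28a libraries, above 6.78 FPKM in both shNC libraries, while CHL1 and CNTN3 lie lower in shLin28a libraries than in shNC libraries.

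All 9 measured members passed the filter on low counts. CNTN2, CNTN3, CHL1, NRCAM and NFASC exceeded its cutoff of 1.32 CPM in all 4 libraries, whereas CNTN1, CNTN4 and L1CAM did so in 3 libraries and CNTN5 in 2. In the edgeR fit of all 11967 tested genes, the fold change was above 0 for 5 members and below 0 for 4. The members' median log2 value was 0.13, against 0.01 over all tested genes, of which 51.2% were positive and 48.8% negative. The groups did not overlap for 6 members, 4 of them higher and 2 lower in shLin28a, where 41.7% of all tested genes did not overlap, 18.8% higher and 22.9% lower. At an adjusted p under 0.05, edgeR called none of the 9 members and 0% of all tested genes. DESeq2 called CNTN2 and NFASC, both higher in shLin28a, and it called 1.03% of all genes with an adjusted p, 0.761% as higher and 0.27% as lower. At an unadjusted edgeR p under 0.05 there were 5 members, namely CNTN2, CNTN3, CHL1, NRCAM and NFASC, and 7.71% of all tested genes. Limma on log2 FPKM, with either pseudocount, called no member. EdgeR called CNTN2 when every gene of at least 1 count was kept, where it called 28 genes higher and 12 lower over the whole table. Since the members were chosen on this contrast, nothing is read from these counts.

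Among the contactins, CNTN2 carried the difference for which the families were chosen. CNTN2, known as TAG-1 in rodents, is displayed by commissural and sensory axons of the embryo and later sits beside the node with the contactin-associated protein CASPR2. The gene lies on chromosome 9 at 65737488 to 65776412 of Sscrofa11.1, and the RefSeq gene table lists no other gene overlapping it. It had 2383 and 452 counts in shLin28a 1 and 2, against 602 and 362 counts in shNC 1 and 2. Scaled to the library totals these were 296 CPM (exact Poisson 95% interval 284 to 308) and 188 CPM (171 to 206) in shLin28a, against 50.8 CPM (46.8 to 55.0) and 50.8 CPM (45.7 to 56.3) in shNC. The intervals cover counting error only. They do not overlap between the groups, a difference for which CNTN2 was chosen, and those of shLin28a 1 and shLin28a 2 do not overlap either. In FPKM the values were 39.5 and 25.1 in shLin28a and 6.78 in each shNC library. The log2 fold change was 2.45 ± 0.23 (SE), or 5.45-fold. It ranged from 2.33 to 2.53 when each library was left out in turn. Ordered by level among all 16026 genes, CNTN2 stood at rank 2160 and 2816 in shLin28a 1 and 2, against 7739 and 7635 in shNC 1 and 2.

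CNTN1, the contactin that pairs with CASPR at the axon beside the node and also binds the receptor phosphatase PTPRZ1, was rare. It was at 0.65 and 0.39 FPKM in shLin28a and 0.21 and 0.36 FPKM in shNC, from 28 and 5 counts in shLin28a and 14 and 14 counts in shNC. Its log2 fold change was 1.06 ± 0.53 (SE). Shares of the library total do not separate the groups within counting error, since the interval in shLin28a 2 ran from 0.676 to 4.86 CPM and that in shNC 2 from 1.07 to 3.30 CPM. A transcribed pseudogene in the RefSeq table overlaps this gene, and how its reads were assigned is not given in the sources used here.

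CNTN3, a contactin of brain neurons also called BIG-1, was the contactin with the second highest level in every library. It was at 1.75 and 1.26 FPKM in shLin28a, against 3.43 and 2.79 FPKM in shNC, with 76 and 16 counts in shLin28a and 220 and 107 counts in shNC. Both shLin28a libraries were lower than both shNC libraries, and the log2 fold change was −0.85 ± 0.25 (SE). CNTN4, an axon guidance molecule of the mouse olfactory system, was at 0.36 and 0.21 FPKM in shLin28a and 0.72 and 0.31 FPKM in shNC. Its log2 fold change was −0.62 ± 0.60 (SE), and 0.09 without shNC 1. CNTN5, which acts in the auditory pathway of mice, had the lowest mean of all members in both groups, at 0.15 and 0.26 FPKM in shLin28a and 0.14 and 0.26 FPKM in shNC, from no more than 12 counts in any library. Its log2 fold change of 0.13 ± 0.73 (SE) lies well within its error, and its sign changed with total counts (−0.05), without shLin28a 2 (−0.36) and without shNC 1 (−0.25).

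In the L1 family, NFASC and NRCAM were higher and CHL1 lower in shLin28a libraries. NFASC encodes neurofascin, whose neuronal form anchors sodium channels at the axon initial segment through ankyrin G and whose glial form binds contactin 1. It had 1281 and 217 counts in shLin28a and 726 and 390 counts in shNC. The levels were 16.4 and 9.95 FPKM in shLin28a, against 6.39 and 5.71 FPKM in shNC, and the log2 fold change was 1.29 ± 0.23 (SE), or 2.45-fold. The RefSeq table lists 40 transcripts of NFASC and the deposited table gives 1 value per gene, so neuronal and glial forms are not separated. NRCAM, which binds contactin 2 and neurofascin and acts in growth cones and at nodes, was at 15.8 and 8.44 FPKM in shLin28a, against 7.48 and 7.07 FPKM in shNC. It had 783 and 123 counts in shLin28a and 551 and 311 counts in shNC, and its log2 fold change was 0.90 ± 0.24 (SE). Its excess over shNC was larger in shLin28a 1 than in shLin28a 2, at 1.12 and 0.62 in log2 CPM above the shNC mean.

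CHL1, the close homologue of L1 that guides neurite growth and the placement of cortical neurons in mice, ran the other way. It was at 0.99 and 1.10 FPKM in shLin28a, against 2.83 and 3.65 FPKM in shNC, from 58 and 19 counts in shLin28a and 244 and 189 counts in shNC. The log2 fold change was −1.45 ± 0.31 (SE), to 0.366 of the shNC level. L1CAM, the founding member, whose loss in humans causes hydrocephalus and spastic paraplegia, was low and uneven. It was at 0.61 and 0.26 FPKM in shLin28a and 0.44 and 1.39 FPKM in shNC, where the 48 counts of shNC 2 exceeded the 25 counts of the deeper shNC 1. Its log2 fold change was −0.78 ± 0.73 (SE), and 0.26 without shNC 2.

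**Figure D2:**
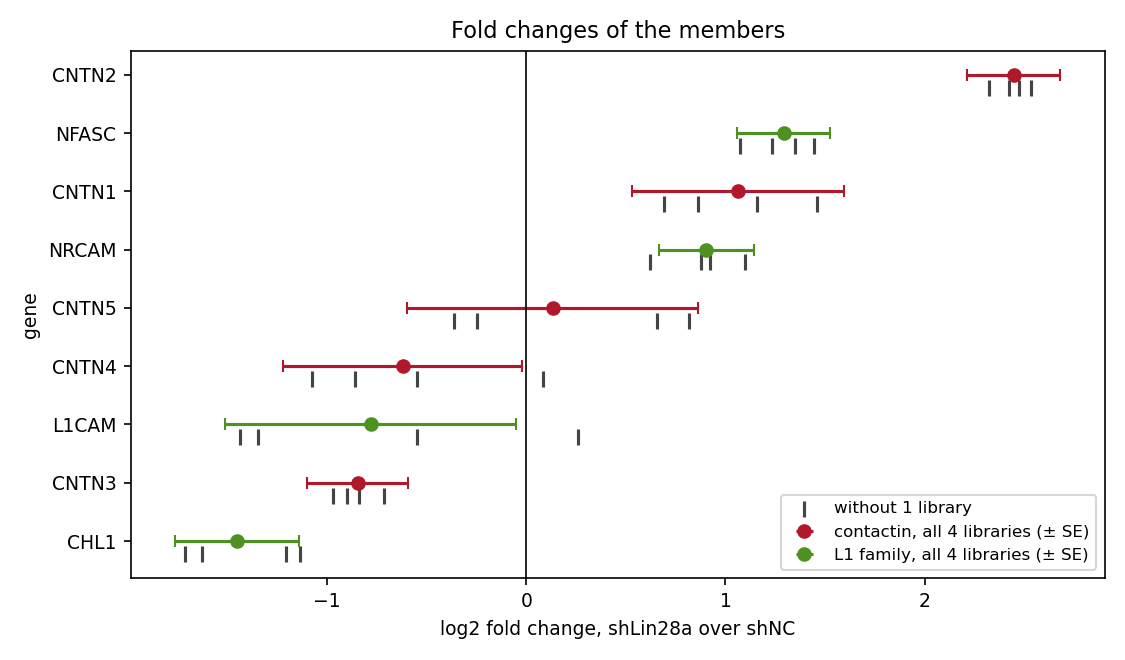
Log2 fold change of each member, shLin28a over shNC, from the edgeR fit of all 4 libraries, with bars of 1 standard error; ticks below each point give the value with each library left out in turn. CNTN2 at 2.45 stands furthest from 0 and CHL1 at −1.45 is the lowest, while the ticks of CNTN5, CNTN4 and L1CAM lie on both sides of 0.

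The order of the levels, compared per length in FPKM, differed between the groups. In shLin28a cells CNTN2 averaged 32.3 ± 10.2 FPKM (SD, n = 2), 2.45 times the mean of NFASC, and its libraries did not overlap those of NFASC. NFASC at 13.2 ± 4.57 FPKM and NRCAM at 12.1 ± 5.20 FPKM (SD, n = 2 each) did overlap. CNTN3 at 1.51 ± 0.346 FPKM and CHL1 at 1.05 ± 0.0778 FPKM (SD, n = 2 each) followed without overlap, and CNTN1, L1CAM, CNTN4 and CNTN5, from 0.52 down to 0.205 FPKM on average, each overlapped their neighbour. In shNC cells NRCAM was first at 7.28 ± 0.290 FPKM (SD, n = 2), 1.07 times the 6.78 FPKM of CNTN2, and NFASC came after them at 6.05 ± 0.481 FPKM (SD, n = 2). The libraries of these 3 genes did not overlap, although the steps between them were small. CHL1 at 3.24 ± 0.580 FPKM and CNTN3 at 3.11 ± 0.453 FPKM (SD, n = 2 each) overlapped in shNC. L1CAM, CNTN4, CNTN1 and CNTN5 came last, at 0.915 down to 0.200 FPKM on average, and each overlapped its neighbour.

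The make-up of each family can be read within a library, where depth and scaling cancel. CNTN2 made up 93.1% and 92.2% of the summed contactin FPKM in shLin28a 1 and 2, against 60.1% and 64.6% in shNC 1 and 2. CNTN3 made up 4.13% and 4.63% in shLin28a, against 30.4% and 26.6% in shNC. The share of CNTN3 also depends on CNTN2, which is in its denominator, and CNTN3 itself differed less, as given above. In the L1 family, NFASC and NRCAM together made up 95.3% and 93.1% of the summed FPKM in shLin28a, against 80.9% and 71.7% in shNC, and CHL1 made up 2.93% and 5.57% in shLin28a, against 16.5% and 20.5% in shNC. The ratio of CNTN2 to NFASC was 2.40 and 2.52 in shLin28a, against 1.06 and 1.19 in shNC. Summed over the contactins other than CNTN2, the level was 2.91 and 2.12 FPKM in shLin28a, against 4.5 and 3.72 FPKM in shNC, so the summed contactin level of 42.4 and 27.2 FPKM in shLin28a, against 11.3 and 10.5 FPKM in shNC, followed CNTN2. In bulk samples, fewer or more cells of a type and less or more RNA per cell cannot be told apart.

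**Figure D3:**
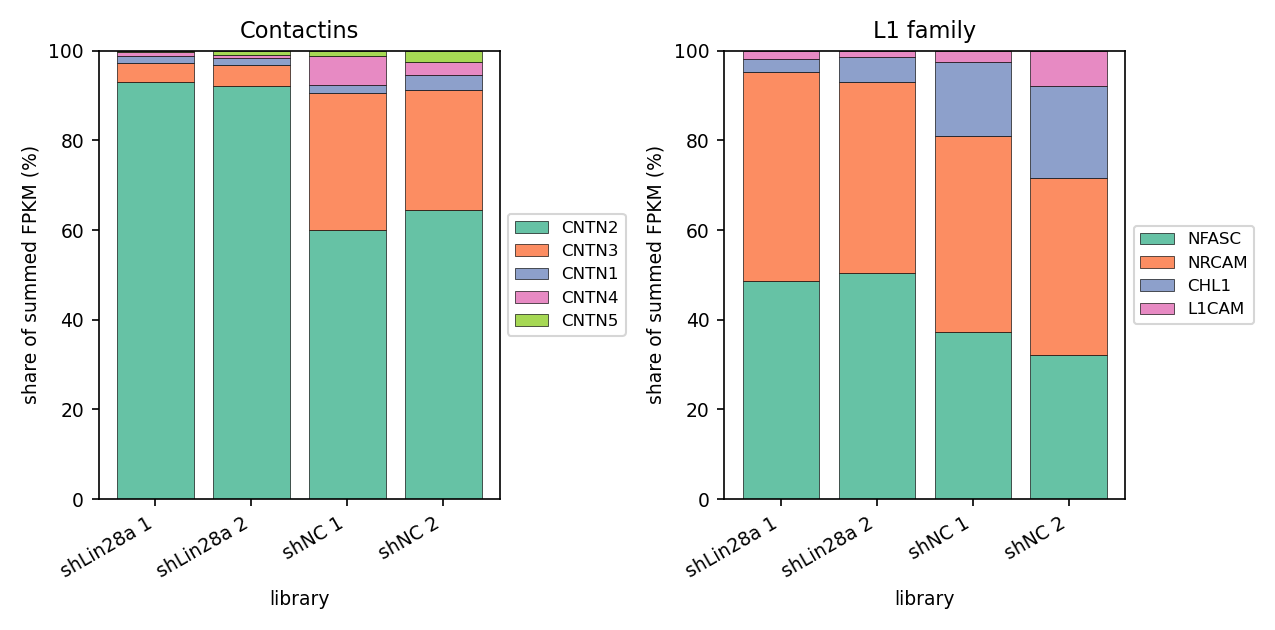
Share of each member in the summed FPKM of its family, in percent, with a stacked bar for each library (left panel, contactins; right panel, L1 family). CNTN2 fills 93.1% and 92.2% of the contactin bars in shLin28a libraries, against 60.1% and 64.6% in shNC libraries, and CHL1 takes a larger part of the L1 family bars in shNC libraries.

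The members fall into neighbouring groups on the chromosomes, which the choice of members did not use. NFASC and CNTN2 are adjacent rows of the table on chromosome 9, with 21.9 kb between the end of NFASC at 65715612 and the start of CNTN2. Both were higher in shLin28a libraries. Of the 3 nearest genes of the table on the other side of CNTN2, TMEM81 was at 1.09 and 0.57 FPKM in shLin28a and 0.78 and 1.10 FPKM in shNC. RBBP5, a subunit of histone H3 lysine 4 methyltransferase complexes, was at 17.7 and 23.6 FPKM in shLin28a and 17.3 and 18.2 FPKM in shNC, and the kinase gene DSTYK was at 5.28 and 5.07 FPKM in shLin28a and 5.31 and 4.86 FPKM in shNC. Their log2 fold changes were 0.08 ± 0.53, 0.48 ± 0.32 and 0.25 ± 0.22 (SE), with edgeR adjusted p of 0.961, 0.631 and 0.696. Beyond NFASC, LRRN2, a leucine-rich repeat neuronal gene, had a log2 fold change of 0.21 ± 0.27 (SE) and MDM4, a p53 inhibitor, one of −0.22 ± 0.20 (SE), with edgeR adjusted p of 0.780 and 0.705. TMCC2, the fourth gene of the table beyond CNTN2, was singled out after its values were seen. It was at 15.8 and 11.9 FPKM in shLin28a, against 7.12 and 6.13 FPKM in shNC. Its log2 fold change was 1.2 ± 0.20 (SE), with an edgeR adjusted p of 0.253. DESeq2 called TMCC2 higher (DESeq2 adjusted p 0.0304), where it called 0.761% of all genes with an adjusted p as higher.

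CNTN3, CHL1 and CNTN4 follow each other on chromosome 13 with no other row of the table between them, over 3.99 Mb from 55648491 to 59642134, and CNTN6 lies between CHL1 and CNTN4. This grouping was noted after the values were seen. All 3 measured genes had negative log2 fold changes, of which that of CNTN4 was within its error. The flanking gene before CNTN3, PDZRN3, was at 0.92 and 5.74 FPKM in shLin28a and 1.85 and 2.52 FPKM in shNC, and the groups overlapped. The gene after CNTN4, TRNT1, which adds the CCA end to transfer RNAs, was at 8.03 and 4.69 FPKM in shLin28a and 8.47 and 8.79 FPKM in shNC, a log2 fold change of −0.22 ± 0.21 (SE). CNTN5 and NRCAM are also on chromosome 9 but far from CNTN2, at 30259603 to 31469860 and 107928866 to 108248018. CNTN1 is on chromosome 5 at 72168496 to 72495454 and L1CAM on chromosome X at 124595649 to 124618292.

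**Figure D4:**
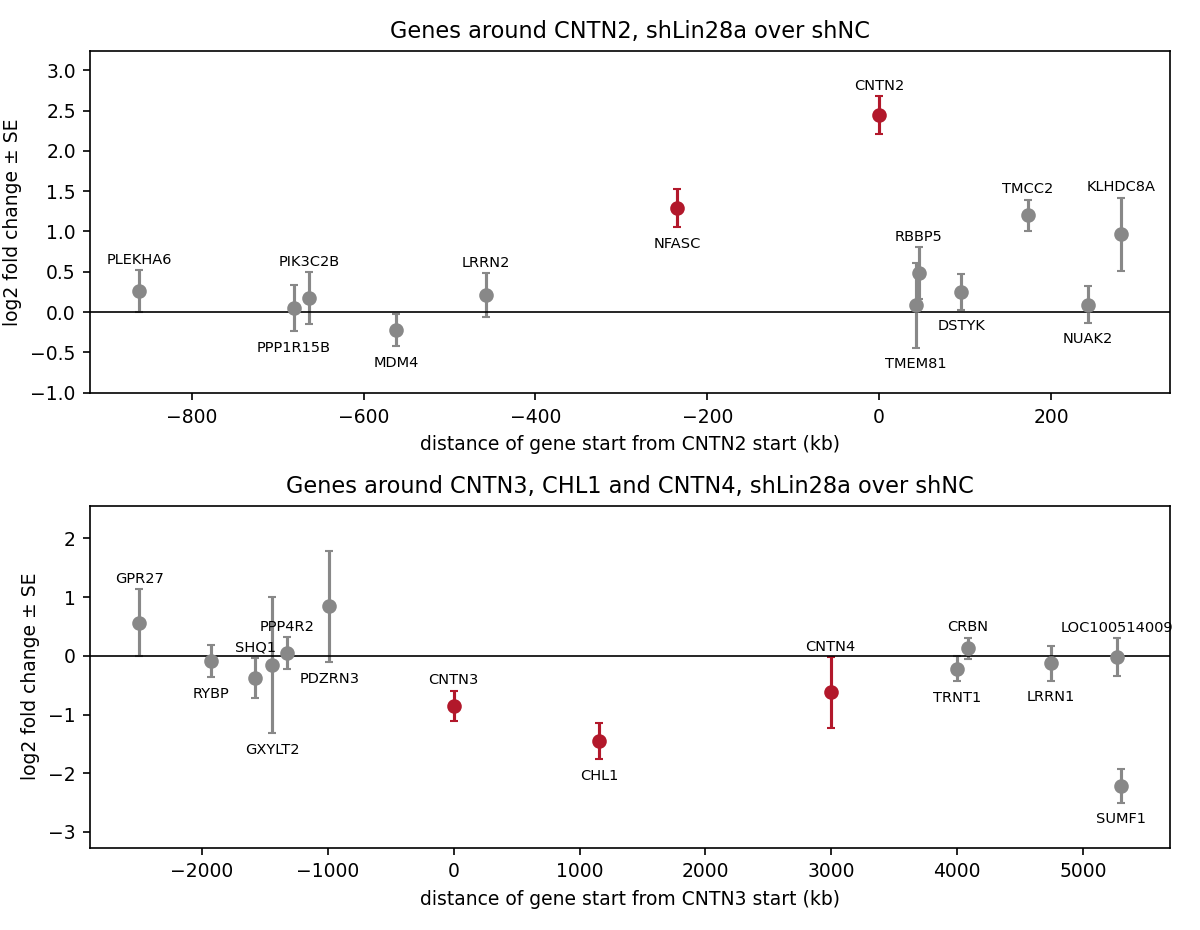
Log2 fold change with 1 standard error for genes of the table around CNTN2 (upper panel) and around CNTN3, CHL1 and CNTN4 (lower panel), shLin28a over shNC, against the distance of each gene start in kb; members are red and other genes grey. NFASC and CNTN2 stand above the genes at their sides, while TMCC2 at 1.2 and, in the lower panel, SUMF1 at −2.21 are non-members away from 0. DESeq2 called both TMCC2 and SUMF1, and edgeR called neither.

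The 5 tested genes whose log2 CPM profile over the 4 libraries lay nearest to that of CNTN2, by Euclidean distance after centring, were GALNT14, NACAD, KLHL35, MMP17 and EYA2, at distances of 0.10, 0.10, 0.20, 0.23 and 0.24. They share libraries and depth with CNTN2, and the likeness is a description over 4 points. CNTN2 was chosen for its difference between the groups, so nearness to it largely restates that difference and is no separate evidence. GALNT14 had 22 and 4 counts in shLin28a and 3 and 2 counts in shNC, where it did not exceed the floor of 3 counts. The prior count of 2 therefore weighs on its profile. GALNT14 passed the filter on low counts through the shLin28a libraries only, as that floor lies below the cutoff of 1.32 CPM in both shNC libraries. Its fitted log2 fold change was 3.20 ± 0.64 (SE), against 2.45 for CNTN2. MMP17, a membrane-anchored matrix metalloproteinase, was at 4.58 and 3.60 FPKM in shLin28a, against 0.88 and 0.84 FPKM in shNC. EYA2, a transcriptional coactivator of the eyes absent family, was at 6.83 and 3.77 FPKM in shLin28a, against 1.2 and 1.00 FPKM in shNC. NACAD was at 2.70 and 1.62 FPKM in shLin28a and 0.44 and 0.41 FPKM in shNC, KLHL35 at 5.91 and 3.08 FPKM in shLin28a and 0.83 and 0.82 FPKM in shNC, and GALNT14, which starts mucin-type glycan chains, at 1.04 and 0.63 FPKM in shLin28a and 0.10 and 0.11 FPKM in shNC. All 5 were lower in level than CNTN2. Among the other members, NFASC ranked 133 of 11966 genes by this likeness, CNTN1 333 and NRCAM 334, whereas CNTN3, L1CAM and CHL1 ranked 11301, 11361 and 11709. The rank of CNTN1 also rests on few counts, 28 and 5 in shLin28a and 14 and 14 in shNC.

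At an adjusted p under 0.05, edgeR called no listed gene whose protein binds, anchors or cuts the members, and 0% of all tested genes. Of 43 listed genes 41 had a row and 35 were tested, with 26 positive and 9 negative log2 fold changes and a median of 0.29, against 0.01 over all tested genes. None was called by edgeR after adjustment; before adjustment 3 were higher and 2 lower at p under 0.05, where 4.26% of all tested genes were higher and 3.45% lower. DESeq2 called NCAN higher, where it called 0.761% of all genes with an adjusted p as higher. The list median was 0.10 in shLin28a 1 and 0.39 in shLin28a 2 relative to the shNC mean, and it was 0.04 without shLin28a 2, where the median of all tested genes was −0.02. With total counts it was 0.06, where that of all tested genes was −0.18. Without shLin28a 1, edgeR called 8 of the list: PTPRZ1, PTPRA, SPTBN1, MSN, NRP1, ADAM10, BACE1 and GLDN. In that fit 1110 genes were called higher and 94 lower over the whole table.

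The partners nearest to a call were 2 matrix ligands and 2 membrane receptors. Neurocan (NCAN), a chondroitin sulphate proteoglycan of brain matrix that binds contactin 2 and L1, was at 11.4 and 6.22 FPKM in shLin28a, against 4.35 and 2.39 FPKM in shNC, a log2 fold change of 1.58 ± 0.35 (SE) and an edgeR adjusted p of 0.354. Gliomedin (GLDN), which Schwann cells secrete to cluster neurofascin and NrCAM at nodes, was at 3.32 and 5.02 FPKM in shLin28a, against 0.84 and 1.66 FPKM in shNC, a log2 fold change of 1.99 ± 0.52 (SE) and an edgeR adjusted p of 0.460. PTPRZ1, the receptor phosphatase that binds contactin 1, was at 8.46 and 6.64 FPKM in shLin28a, against 18.8 and 17.5 FPKM in shNC, a log2 fold change of −0.94 ± 0.19 (SE) and an edgeR adjusted p of 0.329. CNTNAP2, which encodes the contactin 2 partner CASPR2, was at 0.32 and 0.19 FPKM in shLin28a, against 0.77 and 2.50 FPKM in shNC, a log2 fold change of −2.44 ± 0.70 (SE) and an edgeR adjusted p of 0.537. These 4 genes were named for their small p. The groups did not overlap for any of them. Over the 35 tested genes of the list they did not overlap for 11 higher and 5 lower genes, and over all tested genes for 41.7%. CNTN2 was higher and its partner CNTNAP2 lower in both shLin28a libraries than in both shNC libraries. CNTNAP2 rested on 23 and 4 counts in shLin28a and on uneven counts in shNC, 82 and 160. Its log2 fold change was −3.09 without shNC 1 and −1.36 without shNC 2.

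Other partners are given by role, picked for their role rather than by the rule for named genes. CNTNAP1, the CASPR of contactin 1, was at 2.55 and 2.15 FPKM in shLin28a and 2.68 and 1.56 FPKM in shNC. PTPRG, the receptor phosphatase of contactins 3 to 6, was at 14.7 and 21.6 FPKM in shLin28a and 18.2 and 16.4 FPKM in shNC. The ankyrins that hold the L1 family had fold changes about the size of their errors. ANK2 was at 5.12 and 3.88 FPKM in shLin28a and 4.55 and 4.92 FPKM in shNC, a log2 fold change of 0.14 ± 0.19 (SE), and ANK3 at 3.58 and 2.61 FPKM in shLin28a and 4.29 and 3.86 FPKM in shNC, a log2 fold change of −0.19 ± 0.19 (SE). ADAM10, a sheddase of L1CAM and other members, was at 42.7 and 116 FPKM in shLin28a and 32.2 and 50.03 FPKM in shNC, and moesin (MSN), which links L1 tails to actin, at 119 and 323 FPKM in shLin28a and 88.8 and 127 FPKM in shNC. The related genes of the list went otherwise in FPKM. EZR was at 99.6 and 61.7 FPKM in shLin28a and 107 and 98.3 FPKM in shNC. RDX was at 87.9 and 85.7 FPKM in shLin28a and 110 and 90.5 FPKM in shNC. In FPKM, ADAM10 and MSN were highest, and EZR and RDX lowest, in shLin28a 2, the library with the highest sum of fibroblast markers. In TMM-scaled log2 CPM relative to the shNC mean, RDX was instead higher in shLin28a 2, at 0.22, than in shLin28a 1, at −0.17. The part of fibroblasts in the levels of these genes was not tested.

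Other immunoglobulin-family adhesion genes were split in direction. Of 40 listed genes 37 had a row and 29 were tested, 15 of them positive and 14 negative. The median of 0.08 lay near that of all tested genes, 0.01. It was −0.16 with total counts and −0.02 with upper-quartile factors, where the medians of all tested genes were −0.18 and −0.08. It also turned negative with every gene of at least 1 count (−0.05), DESeq2 (−0.04), log2 FPKM (−0.26 to −0.05) and without shNC 2 (−0.01). EdgeR called none of the list and 0% of all tested genes after adjustment. Before adjustment 6 were higher and 3 lower at p under 0.05, against 4.26% and 3.45% of all tested genes. DESeq2 called DCC and ROBO3 higher and PRTG lower, against 0.761% and 0.27% of all genes with an adjusted p. DCC, the netrin receptor of commissural axons, was at 15.7 and 9.87 FPKM in shLin28a, against 4.61 and 4.65 FPKM in shNC, a log2 fold change of 1.67 ± 0.21 (SE) and an edgeR adjusted p of 0.219. ROBO3, which lets commissural axons cross the midline, was at 3.95 and 2.88 FPKM in shLin28a, against 0.32 and 0.83 FPKM in shNC, a log2 fold change of 2.82 ± 0.51 (SE) and an edgeR adjusted p of 0.279. IGSF9B, an adhesion protein of inhibitory synapses, was at 4.61 and 3.82 FPKM in shLin28a, against 2.77 and 2.00 FPKM in shNC, with an edgeR adjusted p of 0.322. PRTG, an immunoglobulin-family receptor (protogenin) of the neural tube, was at 10.9 and 6.42 FPKM in shLin28a, against 36.2 and 26.9 FPKM in shNC, with an edgeR adjusted p of 0.259. Without shLin28a 1, the log2 fold changes of DCC, ROBO3, IGSF9B and PRTG were 1.54, 2.80, 1.16 and −1.86. With every gene of at least 1 count edgeR called DCC, where it called 28 genes higher and 12 lower over the whole table.

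Genes of axon growth and the neuronal cytoskeleton were mostly positive. Of 29 listed genes 26 had a row and 22 were tested, 19 of them positive and 3 negative, where 51.2% of all tested genes were positive. The median was 0.62, between 0.29 and 1.08 under the alternatives. EdgeR called none of the list and 0% of all tested genes after adjustment. Before it 8 were higher and 0 lower at p under 0.05, against 4.26% and 3.45% of all tested genes. DESeq2 called 4 higher, namely DCX, STMN4, NEFL and NEFM, against 0.761% of all genes with an adjusted p. STMN4, a stathmin that loosens microtubules, was at 6.41 and 3.03 FPKM in shLin28a, against 0.78 and 0.98 FPKM in shNC, a log2 fold change of 2.63 ± 0.42 (SE) and an edgeR adjusted p of 0.247. The neurofilament genes NEFM and NEFL had log2 fold changes of 1.2 ± 0.20 and 1.60 ± 0.31 (SE) with edgeR adjusted p of 0.253 and 0.301; NEFM was at 9.77 and 7.41 FPKM in shLin28a and 4.09 and 4.57 FPKM in shNC, and NEFL at 14.4 and 13.8 FPKM in shLin28a and 4.23 and 6.66 FPKM in shNC. DCX, a microtubule protein of migrating neurons that binds the tail of neurofascin, was at 22.2 and 10.4 FPKM in shLin28a, against 7.14 and 6.09 FPKM in shNC, with an edgeR adjusted p of 0.327. Without shLin28a 1, the log2 fold changes of STMN4, NEFM, NEFL and DCX were 2.25, 1.21, 1.78 and 1.08. TRIM46, which marks the axon initial segment where neurofascin gathers, was at 2.52 and 2.35 FPKM in shLin28a, against 1.29 and 1.21 FPKM in shNC.

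**Figure D5:**
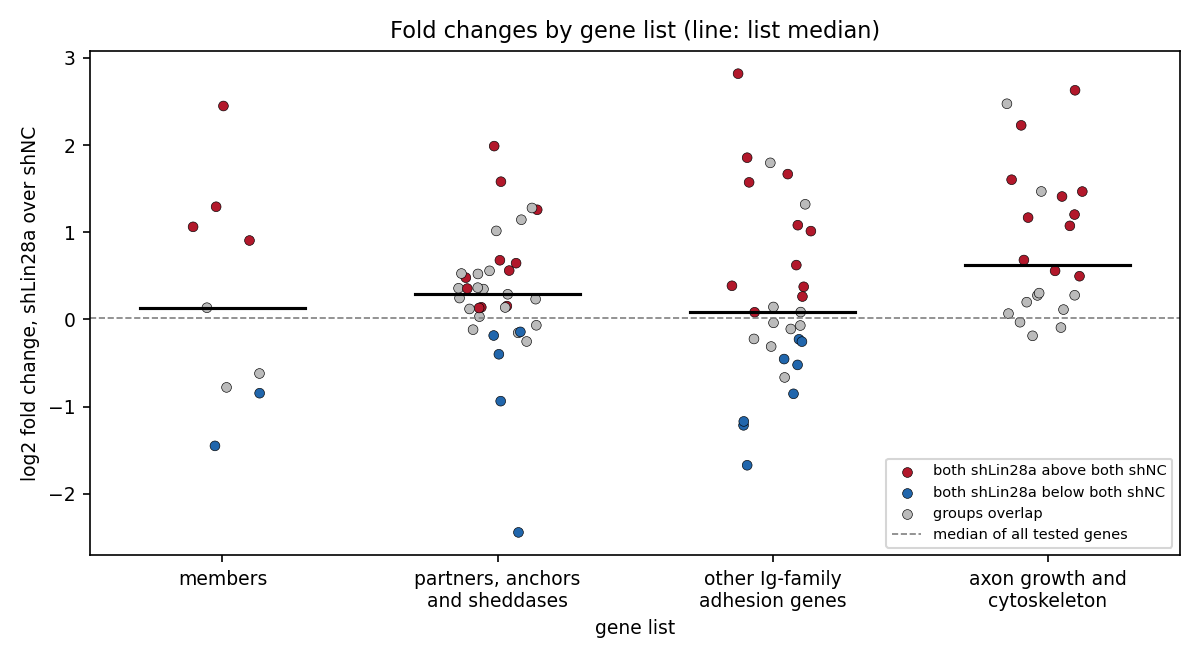
Log2 fold changes, shLin28a over shNC, of the 9 members and of the tested genes of 3 lists, with a point for each gene, a black line at each list median and a dashed line at the median of all tested genes, 0.01; red and blue mark genes whose shLin28a libraries both lay above or below both shNC libraries. The axon growth list has the highest median, 0.62, and the members, with a median of 0.13, spread to both sides.

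Markers of cell types that carry these molecules were summed beside them. Over the 10 neuronal markers with a row, the summed level was 192 and 96.6 FPKM in shLin28a 1 and 2, against 87.6 and 82.0 FPKM in shNC 1 and 2, and 8 of 9 tested markers were positive. STMN2 and ELAVL3 were the most abundant, with STMN2 at 77.8 and 38.7 FPKM in shLin28a and 33.3 and 29.3 FPKM in shNC, and ELAVL3 at 58.1 and 25.2 FPKM in shLin28a and 35.5 and 29.6 FPKM in shNC. The negative marker was SNAP25, at 7.12 and 4.15 FPKM in shLin28a and 5.28 and 10.5 FPKM in shNC. RBFOX3, not tested, was at 0.19 and 0.21 FPKM in shLin28a and 0.45 and 0.21 FPKM in shNC. STMN2 and DCX are also in the axon growth list, so the lists share genes. Over 12 markers of commissural or sensory neurons the sum was 55.5 and 34.5 FPKM in shLin28a, against 9.84 and 11.9 FPKM in shNC, and all 5 tested markers were positive. ROBO3 among them is also in the list of immunoglobulin-family genes. The largest part of that sum in each library was ATOH1, a proneural factor of dorsal commissural neurons, at 37.5 and 19.96 FPKM in shLin28a and 8.0 and 5.74 FPKM in shNC. BARHL1 was at 8.67 and 3.77 FPKM in shLin28a and 0.26 and 1.80 FPKM in shNC, and RUNX1, which blood cells also express, at 0.86 and 4.77 FPKM in shLin28a and 0.52 and 2.44 FPKM in shNC. Within shLin28a, CNTN2 and both of these sums were higher in library 1 than in library 2 in FPKM. The sums of neural progenitor, myelinating glia and pluripotency markers were also higher in library 1, and that of fibroblast markers was lower. In TMM-scaled log2 CPM, library 2 minus library 1 was −0.23 for CNTN2. NTRK3, DRGX and POU4F1 did not exceed 0.30 FPKM in any library, and ISL1 did not exceed 0.37 FPKM. The part of neurons in the levels of the members was not tested.

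Over 12 neural progenitor markers the sum was 868 and 423 FPKM in shLin28a, against 683 and 551 FPKM in shNC, so the groups overlapped. Of the 8 tested markers 3 were positive and 5 negative. ZIC2 was at 302 and 155 FPKM in shLin28a and 276 and 252 FPKM in shNC, NES at 292 and 112 FPKM in shLin28a and 143 and 96.4 FPKM in shNC, and SOX1 was at 0 counts in every library. Among tested markers the groups did not overlap for NES, higher in shLin28a, and for SOX3 and ZIC1, lower. Over all tested genes they did not overlap for 41.7%, with 18.8% higher and 22.9% lower. SOX3 was at 0.77 and 0.15 FPKM in shLin28a and 2.05 and 1.17 FPKM in shNC. ZIC1 was at 69.5 and 43.75 FPKM in shLin28a and 92.95 and 70.4 FPKM in shNC. Of 12 markers of myelinating glia, the cells that carry the glial form of neurofascin, 7 had a row and summed to 20.1 and 13.5 FPKM in shLin28a, against 21.7 and 21.6 FPKM in shNC. CNP was at 15.6 and 8.90 FPKM in shLin28a and 15.7 and 15.8 FPKM in shNC, and S100B at 3.79 and 1.70 FPKM in shLin28a and 4.77 and 4.29 FPKM in shNC. FOXD3 was at 0 counts in every library, and SOX10 did not exceed 1.03 FPKM. The fibroblast markers had a median of −0.12 in shLin28a 1 and 2.71 in shLin28a 2 in log2 CPM relative to the shNC mean. On the same scale COL1A1 was 0.91 and ACTA2 0.74 above the shNC mean in shLin28a 1. CNTN2 was 2.55 above that mean in shLin28a 1 and 2.32 above it in shLin28a 2. The part of fibroblasts in these values was not tested.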

How the data were processed

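Polyadenylated RNA of 4 libraries was sequenced on a BGISEQ-500 instrument, per the labels' protocols. Bowtie2 and RSEM 1.2.12 were used with build Sscrofa11.1, per the submitters' processing notes; how strands were counted is not given in these sources. The deposited expected counts are RSEM estimates, not normalised between libraries. The other columns deposited by the authors are read as FPKM; their header names no unit, and single-exon genes FZD2, GAS1 and EID1 imply library totals of 1.03 to 1.04 times the summed counts if 200 bases are taken off the gene length. Identifiers of all 16026 rows matched a RefSeq gene table of that build, which gave positions; 22 symbols deposited as dates were restored.

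Rounded expected counts entered edgeR 4.0.16 (R 4.3.3) with TMM scaling and filterByExpr (11967 genes), for a quasi-likelihood test of shLin28a over shNC, no covariate, Benjamini-Hochberg adjustment over all tested genes, threshold 0.05. Each gene has 2 residual degrees of freedom, and sharing the spread over genes adds 3.30; TMM factors were 1.07 and 0.798 in shLin28a and 1.10 and 1.07 in shNC. The procedure was tested on simulated counts. DESeq2 1.42.0 and limma 3.58.1 (log2 of FPKM plus 1 or 0.1) were alternatives, with other scalings, other filters, each library left out and a replicate block. Whether groups overlap was read from TMM-scaled CPM; log2 CPM used a prior count of 2. FPKM of a group is mean ± SD of 2 libraries. Named were the members and LIN28A, the 4 genes of each of 3 lists with the smallest edgeR p, the 5 profiles nearest to CNTN2, its 3 nearest genes on each side and the 2 most abundant markers of each of 6 cell type lists, plus genes marked in the text as picked otherwise. The members and lists were chosen with earlier results of these data known.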

Additional observations from a re-analysis of the deposited data

How the results depend on the processing

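Genes called over the whole table numbered 0 higher and 0 lower in edgeR, but 2 and 6 with total counts, 28 and 12 with every gene of at least 1 count, and 96 and 34 in DESeq2. Limma called 2 lower on log2 FPKM plus 1, and 1 higher and 2 lower on log2 FPKM plus 0.1. Leaving out each library in turn gave 0 to 1110 higher and 0 to 94 lower, the highest counts without shLin28a 1. Of the partners, edgeR called none, DESeq2 1, and edgeR without a library 0 to 8. Of the immunoglobulin-family genes, 1 was called with every gene of at least 1 count, 3 in DESeq2 and 0 to 5 without a library. Of the axon growth genes, 4 were called in DESeq2 and 0 to 3 without a library. The log2 fold change of CNTN2 was 2.25 with total counts, 2.06 on log2 FPKM plus 1 with either filter, 2.20 on log2 FPKM plus 0.1, and 2.33 to 2.53 without a library. The median of all tested genes was −0.18 with total counts and 0.01 with TMM. NFASC, NRCAM, CNTN1, CNTN3 and CHL1 kept their sign under all alternatives that gave a value. Depth limits CNTN1, CNTN4, CNTN5 and L1CAM, which had 3 to 5 counts in shLin28a 2. The cause of these differences was not tested. The titles end in 1 or 2 in both groups, but no label says that these digits pair libraries. A replicate block on that digit, added after the data were seen and leaving 1 residual degree of freedom per gene, called 1032 genes higher and 306 lower, 7 partners, 10 immunoglobulin-family genes, whose median was −0.04, 9 axon growth genes and 5 members. CNTN2 was at 2.44 with this replicate block. The differences of library 2 minus library 1 in the groups correlated with r = 0.56 across 11967 genes, which are not independent replicates.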
